A study of Mus musculus with 36 samples.

Results

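The carboxylesterase genes of mouse liver are described here across 36 livers from mice fed with or without tomato powder. The 10 genes Ces1b, Ces1c, Ces1d, Ces1e, Ces1f, Ces1g, Ces2a, Ces2e, Ces3a and Ces3b were taken by name from a deposited table of 53715 gene identifiers, and all 10 were found. They are 10 of 20 annotated Ces genes, and the other 10 are used for comparison. The animals were male C57BL/6 mice, an inbred strain, aged 10 weeks. From 4 weeks of age and for 6 weeks they ate AIN93G, a purified rodent diet that served as control, or AIN93G with 10% powder of red tomato, or AIN93G with 10% powder of tangerine tomato. Red tomatoes store lycopene mainly in its all-trans form and tangerine tomatoes mainly as cis isomers. The diets were matched in macronutrients, and there were 12 libraries per diet, no 2 with the same mouse number. The labels state 11 to 12 mice per group, and the libraries were counted here as 12 mice. The labels do not say how the mice were caged or when each was killed, so p-values measure the spread between mice as sampled.

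Carboxylesterases are serine hydrolases that cut ester, amide and thioester bonds. Hepatocytes make them in large amounts and keep most of them in the lumen of the endoplasmic reticulum, where they activate or clear ester drugs and dietary esters and also act on stored triglyceride and cholesteryl ester. Their genes lie in tandem arrays, and several respond to the xenobiotic receptors PXR (Nr1i2) and CAR (Nr1i3) and to NRF2 (Nfe2l2), the factor that KEAP1, the sensor of electrophiles, sets free. The study's stated subject was how tomato type and tomato feeding alter liver metabolism, including the genes that handle foreign compounds.

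All 20 annotated genes lie on chromosome 8 (GRCm38, GENCODE release M21). The Ces1 genes sit on the minus strand in the order Ces1b (chr8:93056728-93080017), Ces1c (chr8:93099015-93131283), Ces1d (chr8:93166068-93197838), Ces1e (chr8:93201218-93229619), Ces1f (chr8:93256236-93279747) and Ces1g (chr8:93302369-93337308). Ces2a (chr8:104734003-104741634), Ces2e (chr8:104926260-104934672), Ces3a (chr8:105048601-105058413) and Ces3b (chr8:105083753-105093929) form a second array on the plus strand. Start regions from RefSeq (GRCm38.p6) matched 7 of the 10 genes, with 2 alternative starts for Ces1b. Entries were not at hand for Ces1d, Ces1f and Ces3a. The 250 bases before the annotated start are printed for the 4 Ces1 genes because all of them hold the same D-box word, TTATGTAA, the site that the PAR bZIP factors DBP, TEF and HLF and the repressor NFIL3 bind. Capitals mark matches to a searched motif. For Ces1b (chr8:93079941-93080190), Ces1c (chr8:93131284-93131533), Ces1e (chr8:93229620-93229869) and Ces1g (chr8:93337210-93337459), all on the minus strand and written 5′ to 3′, the sequences are:
Ces1b: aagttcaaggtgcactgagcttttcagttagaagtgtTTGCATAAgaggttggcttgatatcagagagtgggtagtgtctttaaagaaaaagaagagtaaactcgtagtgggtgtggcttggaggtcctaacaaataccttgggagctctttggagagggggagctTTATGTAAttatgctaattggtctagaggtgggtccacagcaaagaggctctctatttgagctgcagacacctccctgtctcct
Ces1c: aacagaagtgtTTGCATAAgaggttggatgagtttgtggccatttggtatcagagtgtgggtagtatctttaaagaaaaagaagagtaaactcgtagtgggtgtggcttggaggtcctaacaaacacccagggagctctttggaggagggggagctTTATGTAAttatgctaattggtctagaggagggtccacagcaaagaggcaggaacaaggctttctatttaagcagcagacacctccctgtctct
Ces1e: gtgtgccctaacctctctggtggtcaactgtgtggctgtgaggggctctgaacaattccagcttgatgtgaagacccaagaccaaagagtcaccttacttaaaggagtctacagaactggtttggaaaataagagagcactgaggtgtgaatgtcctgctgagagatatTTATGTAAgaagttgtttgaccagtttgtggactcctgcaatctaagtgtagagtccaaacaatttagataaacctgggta
Ces1g: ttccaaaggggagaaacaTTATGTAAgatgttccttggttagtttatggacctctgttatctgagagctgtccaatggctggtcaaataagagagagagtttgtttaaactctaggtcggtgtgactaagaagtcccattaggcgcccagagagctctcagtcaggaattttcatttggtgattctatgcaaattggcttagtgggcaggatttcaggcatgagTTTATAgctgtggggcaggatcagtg

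The D-box word began 84 bases before the printed start of Ces1b, 94 before that of Ces1c, 81 before that of Ces1e and 232 before that of Ces1g, and 7 bases before the more upstream start of Ces1b. These are RefSeq starts. Those printed for Ces1b and Ces1g lie inside the GENCODE genes given above, so distances from the GENCODE starts differ. For Ces1b the GENCODE start is the more upstream one. Of all 32851 RefSeq start windows of the same length (250 bases before to 50 after the start, both strands searched), 308 hold the D-box word, or 0.938%. The C/EBP word TTGCNNAA, read by the hepatocyte factor C/EBPα, was found in Ces1b, Ces1c, Ces2a and Ces2e and in 10.8% of all windows. The TATA box word TATAAA was found in Ces1g and Ces3b and in 13.6% of all windows. The words searched for HNF1, HNF4A (CAAAGTCCA), the antioxidant response element (TGACNNNGC), direct repeats 1 and 4 of nuclear receptors and the E-box (CACGTG) were in none of the 8 windows, which says only that these letters are not there. In the 8 windows no match overlapped another. The Ces1b and Ces1c windows were 78% identical in alignment, so their matches are not separate observations.

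**Figure D1:**
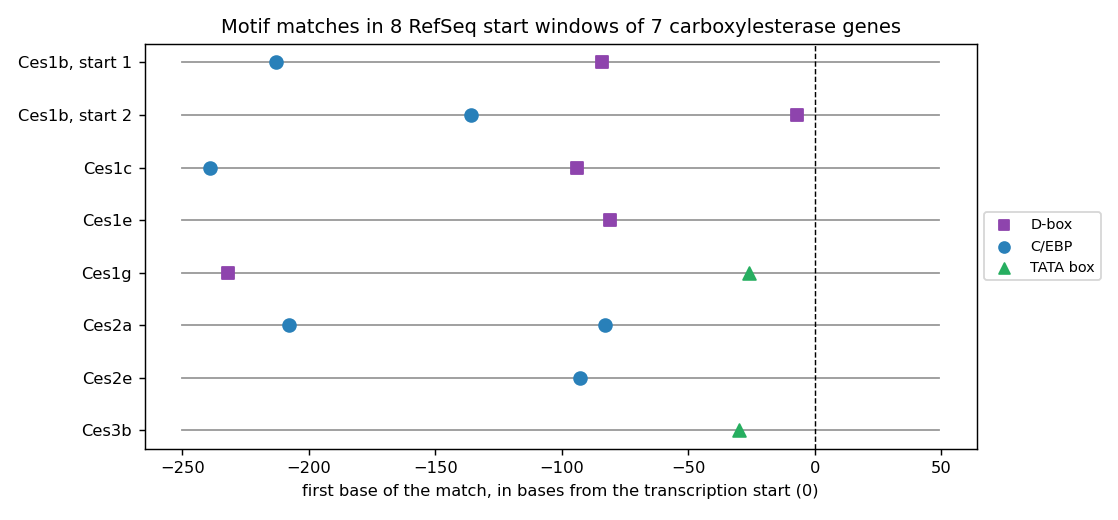
Positions of motif matches (symbols) in the 8 RefSeq start windows of 7 carboxylesterase genes, with the distance in bases from the annotated start on the x axis and genes on the y axis. D-box matches (squares) are seen in the Ces1 genes, at 81 to 94 bases before the start in Ces1c, Ces1e and the first Ces1b window.

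The libraries held 21290169 to 33810573 counts each (median 27002946). They were liver: summed hepatocyte markers stood at 78584 to 118688 CPM (counts scaled to a common library size). Summed enterocyte markers reached 4.38 CPM among control libraries, where their median was 0.108 CPM. Sis was highest in control library 122 (82 counts, median 0) and Lct in control library 183 (33 counts, median 0). Markers of other tissues were raised in single libraries, with adipocyte markers at 6.74 CPM and T cell markers at 118 CPM in the red library 186, and pancreatic acinar markers at 10.3 CPM in the tangerine library 216. The part of these cells in the results below was not tested. The libraries were also cut at the largest gap of Ube2d3 into a set A of 20 (8 control, 4 red, 8 tangerine) and a set B of 16 (4 control, 8 red, 4 tangerine). The sets were therefore bound not to overlap in Ube2d3, at 172 to 208 CPM in set A and 87.9 to 106 CPM in set B. The gene mt-Te, not used for the cut, ran from 17 to 27.9 CPM in set A and 2.72 to 11.2 CPM in set B. The slope of log2 CPM on the G and C percent of transcripts was -0.0164 to -0.00409 in set A and 0.00028 to 0.0356 in set B. This slope had r = 0.92 with the first principal component of all genes tested. The cause of the split was not tested. The labels name no batch, the split was drawn from the data after they were seen, and it is uneven over the diets, so diet values within each set are given wherever they change a direction. Since these are whole livers, fewer cells of a type and less RNA per cell cannot be told apart.

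All 10 genes were expressed in every liver, with at least 2858 counts each. Together they took 0.762% ± 0.0399 (SD, n = 12) of all counts in control mice, 0.799% ± 0.0778 in red and 0.818% ± 0.0489 in tangerine mice, and the range over all 36 livers was 0.634 to 0.902%. Ces1c and Ces3a made up 60.9 to 69.8% of those counts. Per length of the merged exons, as RPKM (CPM per kilobase), control levels were 1267 ± 104 (SD, n = 12) for Ces1c and 751 ± 100 for Ces3a. Next came Ces1d at 242 ± 62.1, Ces3b at 229 ± 30.7 and Ces1b at 211 ± 25.7 RPKM. Ces1f at 130 ± 21.8 and Ces1e at 129 ± 24.9 were followed by Ces2a at 77.7 ± 8.69, Ces2e at 64.6 ± 10.3 and Ces1g at 64.5 ± 12 RPKM. On this scale Ces1c ranked 62 and Ces1g 707 among 14068 genes tested.

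In that order the ranges of neighbours over the 12 control mice were separate between Ces1c and Ces3a, between Ces3a and Ces1d and between Ces1b and Ces1f, and all other neighbours overlapped. Ces1d was above Ces3b in 6 of 12 control mice, Ces1f above Ces1e in 6 and Ces2e above Ces1g in 6, so those pairs are not ordered. The place of Ces1f depends on the length used: its merged exons span 3285 bases and its longest transcript 1926, and by the latter its control level was 222 RPKM.

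Similarity between genes limits how far neighbouring genes can be told apart by counting. Ces3a and Ces3b were 95.3% identical over their coding sequences, Ces1b and Ces1c 88.8%, Ces2a and Ces2e 83.1% and Ces1d and Ces1g 81.5%, while members of different subfamilies were 52.6 to 57.3% identical. Of the 50-base words of the longest coding transcript of Ces3a, 30.9% also occur in Ces3b, and of those of Ces3b 26.1% occur in Ces3a. Ces2a shared 20.9% of its words with the pseudogene Gm7208, to which 55 to 157 counts per library were assigned against 3571 to 7519 for Ces2a. Ces1c shared 17% and Ces1b 11.6% with any other gene, and the remaining 5 genes 1.28 to 3.36%. How reads that fit several genes were counted is not given in the sources used here, so the split between Ces3a and Ces3b is uncertain, and that between Ces1b and Ces1c less so.

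The first question was whether either tomato diet changed these genes. With edgeR's quasi-likelihood test on all 14068 genes and Benjamini-Hochberg adjustment, none of the 10 passed an adjusted p of 0.05 in red against control, where 0.149% of all genes did. None passed in tangerine against control (0.0142% of all genes) or in tangerine against red (1.71%). The same held for the mean of the tomato diets against control (0.00711%). Without adjustment, 3 of the 10 had p under 0.05 in red against control, against 13.3% of all genes. The counts were 2 in tangerine against control (5.47% of all genes), 2 in tangerine against red (15.1%) and 2 for the mean of the tomato diets against control (6.77%). DESeq2 also called none after adjustment in any of the 4 contrasts and gave the same 3, 2, 2 and 2 without it. limma-voom called Ces2a in red against control, in a fit that called 10.7% of all genes, and none in the other contrasts. The median log2 difference of the 10 genes was 0.07 in red, 0.07 in tangerine and 0.06 in both diets against control, beside -0.00, -0.01 and -0.01 over all genes tested. Of the 10, 7 were above 0 in each of these contrasts, which share the control mice, beside 48.5%, 44.6% and 45.5% of all genes.

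**Figure D2:**
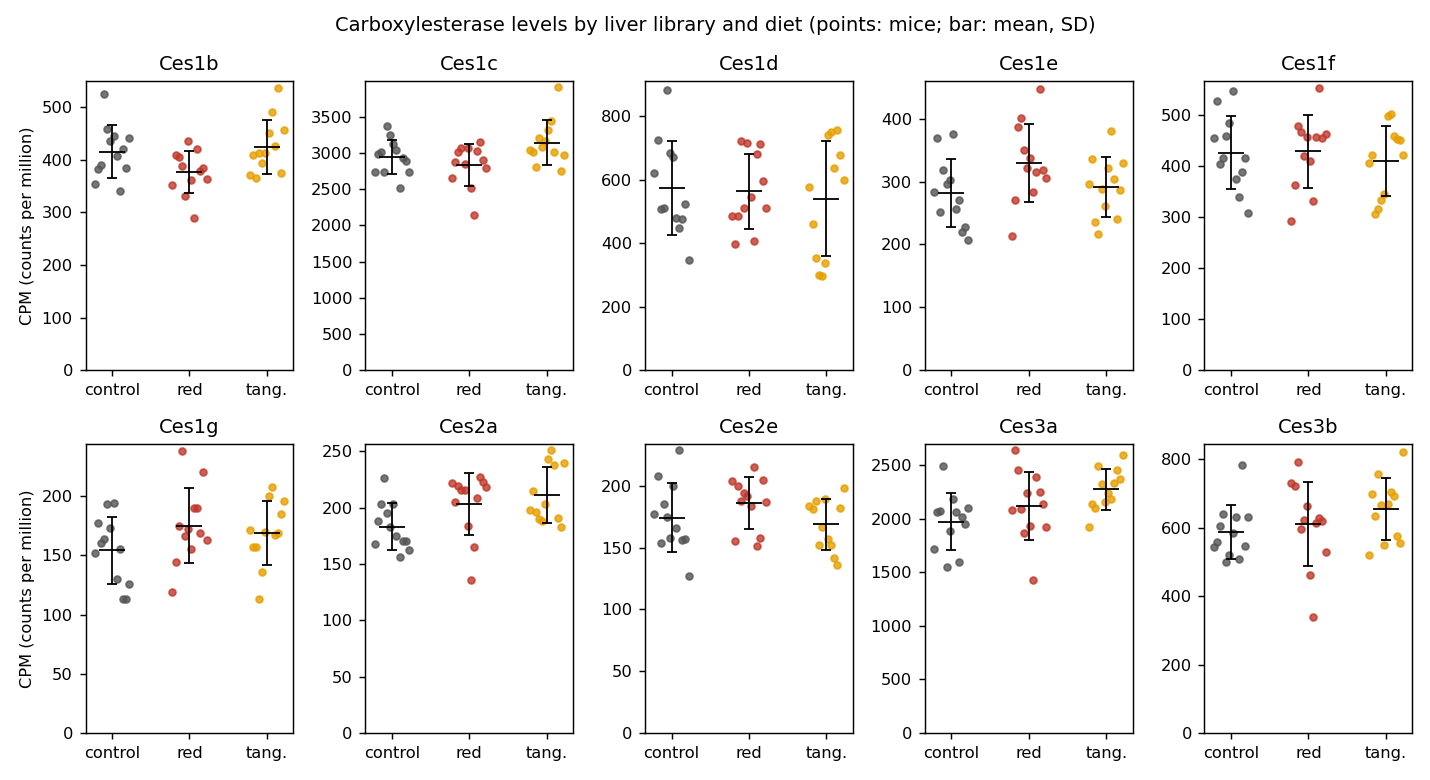
CPM of each of the 10 genes (y axes, starting at 0) in every library by diet (x axes, 12 mice each), with the mean and SD as bars. The diets overlap in all 10 genes, and Ces1d on tangerine has 4 mice between 297 and 353 CPM.

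Ces1c encodes the secreted esterase of mouse plasma, which lacks the usual signal for retention in the endoplasmic reticulum. It ran from 2512 to 3367 CPM on control (median 2958), from 2139 to 3156 on red (median 2892) and from 2746 to 3905 on tangerine (median 3058). Of the tangerine mice, 5 were above every red mouse, and the diets otherwise overlapped. Tangerine exceeded red by 0.15 on the log2 scale (95% interval 0.02 to 0.27, edgeR unadjusted p = 0.0195, adjusted p = 0.22), and the difference from control was -0.05 (-0.17 to 0.07) on red and 0.09 (-0.03 to 0.22) on tangerine. Its neighbour and closest relative Ces1b ran from 341 to 525 CPM on control (median 413), 290 to 436 on red (median 382) and 366 to 537 on tangerine (median 413). Only 2 of 12 red mice were above the control median, with a log2 difference of -0.14 (-0.28 to -0.00, edgeR unadjusted p = 0.0488, adjusted p = 0.373). Of the tangerine mice 9 of 12 were above the red median, with a difference of 0.17 (0.03 to 0.31, unadjusted p = 0.0163, edgeR adjusted p = 0.208). Both genes were thus lowest on red in the mean, by an amount that did not pass the test over all genes.

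Ces1d is the triacylglycerol hydrolase that mobilises stored triglyceride for very-low-density lipoprotein (VLDL). It was the most variable of the 10, with a within-diet SD of 0.41 on the log2 scale, larger than in 86.7% of the 309 genes of like abundance. On control it ran from 348 to 881 CPM (median 517), on red from 398 to 720 (median 528) and on tangerine from 297 to 755 (median 588). The tangerine mice 192, 195, 197 and 198, which carry neighbouring numbers, stood at 353, 300, 297 and 338 CPM. Mouse 160 had 459 CPM and the other 7 of that diet had 577 to 755. What the mouse numbers stand for is not stated. The mean differences were -0.02 (-0.35 to 0.30) for red and -0.09 (-0.41 to 0.24) for tangerine against control, and within set B alone red exceeded control by 0.37 (edgeR adjusted p = 0.454).

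Ces1f, a second triacylglycerol hydrolase, ran from 308 to 547 CPM on control (median 416), 292 to 554 on red (median 456) and 307 to 502 on tangerine (median 423). The same 4 tangerine mice were its 4 lowest of that diet, at 307, 317, 334 and 346 CPM. Its differences from control were 0.01 (-0.19 to 0.21) on red and -0.06 (-0.26 to 0.14) on tangerine. Ces1g, whose loss in mice leads to obesity and fatty liver, ran from 113 to 194 CPM on control (median 157), 119 to 238 on red (median 171) and 113 to 208 on tangerine (median 170). The log2 difference was 0.18 (-0.02 to 0.39, edgeR unadjusted p = 0.0815, adjusted p = 0.449) on red and 0.13 (-0.07 to 0.34) on tangerine. For Ces1d the interval of red against control spans 0.787-fold to 1.23-fold.

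Ces1e, known as egasyn, holds β-glucuronidase (Gusb) in the endoplasmic reticulum. It ran from 207 to 376 CPM on control (median 276), 214 to 448 on red (median 320) and 216 to 381 on tangerine (median 293). On red 10 of 12 mice were above the control median and 3 above every control mouse. The log2 difference was 0.23 (0.02 to 0.44, edgeR unadjusted p = 0.0352, adjusted p = 0.34) on red and 0.05 (-0.16 to 0.26) on tangerine, and tangerine against red gave -0.18 (-0.39 to 0.03). Its partner Gusb had a mean of 32.2 CPM on control, 30 on red and 29.3 on tangerine. All 12 red mice and 11 of 12 tangerine mice were at or below the control median of Gusb. Its differences were -0.10 (-0.20 to -0.01, edgeR adjusted p = 0.336) on red and -0.14 (-0.23 to -0.04, adjusted p = 0.587) on tangerine.

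The Ces2 enzymes prefer esters with a small acyl and a large alcohol group, among them several drugs, and Ces2a also acts on diacylglycerol. Ces2a ran from 156 to 226 CPM on control (median 179), 136 to 227 on red (median 216) and 183 to 251 on tangerine (median 201). All 12 tangerine mice were above the control median, and 4 were above every control mouse. The tangerine difference was 0.20 on the log2 scale (0.06 to 0.35), a 1.15-fold level, with edgeR unadjusted p = 0.00831 and adjusted p = 0.672. On red 10 of 12 mice were above the control median, with 0.15 (0.00 to 0.30, edgeR adjusted p = 0.374), and limma-voom gave 0.20 with an adjusted p of 0.0332. Over both tomato diets 22 of 24 mice were above the control median, with 0.18 (0.05 to 0.31, edgeR unadjusted p = 0.0088, adjusted p = 0.596). Ces2e ran from 127 to 229 CPM on control (median 170), 151 to 215 on red (median 190) and 136 to 198 on tangerine (median 174). One tangerine mouse in 12 was above the red median of Ces2e, and the difference of tangerine from red was -0.14 (-0.30 to 0.02, edgeR unadjusted p = 0.0829, adjusted p = 0.4).

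Ces3a and Ces3b are neighbouring, nearly identical genes. Ces3a ran from 1545 to 2495 CPM on control (median 2037), 1428 to 2639 on red (median 2113) and 1926 to 2590 on tangerine (median 2279). On tangerine 11 of 12 mice were above the control median, with a log2 difference of 0.20 (0.05 to 0.36, edgeR unadjusted p = 0.0107, adjusted p = 0.698). On red 8 of 12 were, with 0.10 (-0.05 to 0.26), and over both diets the difference was 0.15 (0.02 to 0.29, unadjusted p = 0.0258, edgeR adjusted p = 0.691). Ces3b ran from 501 to 784 CPM on control (median 573), 340 to 794 on red (median 621) and 520 to 822 on tangerine (median 668), with differences of 0.05 (-0.14 to 0.25) on red and 0.15 (-0.04 to 0.35) on tangerine. Red mouse 186, whose library held the adipocyte and T cell markers, was the lowest of its diet in Ces1b, Ces1c, Ces3a and Ces3b and the highest in Ces2e. Within set A alone the red difference of Ces3a was -0.07 and that of Ces3b -0.09.

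**Figure D3:**
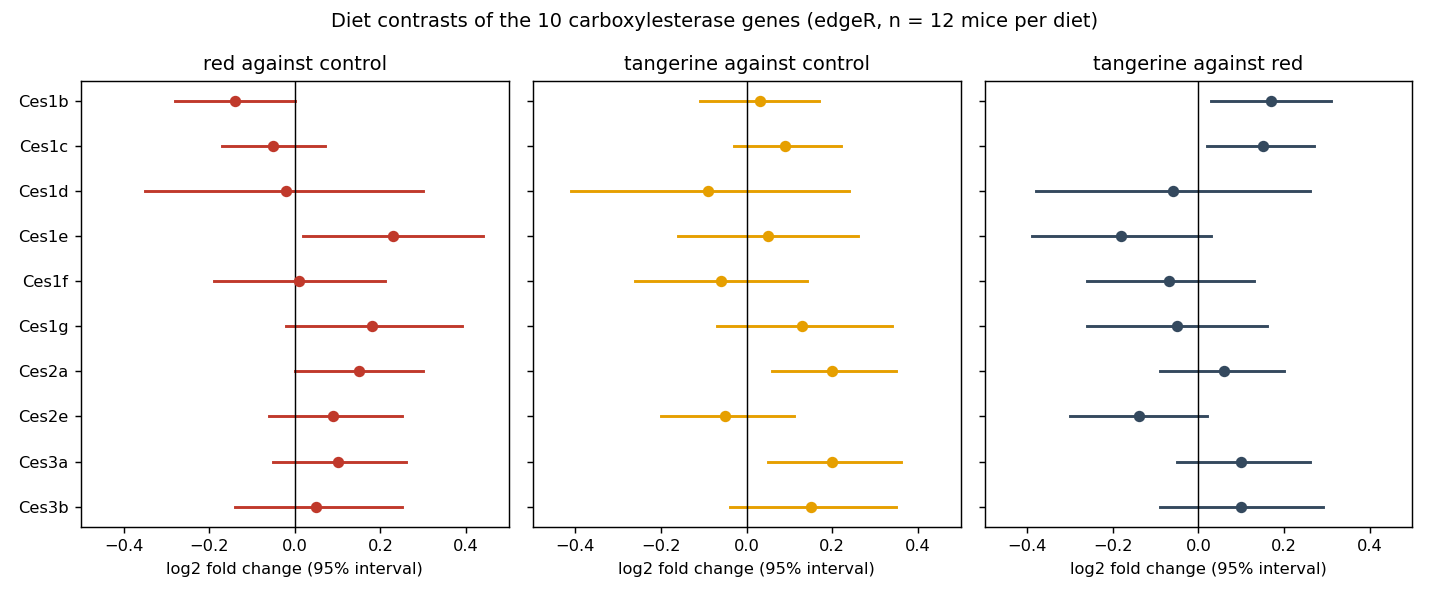
Log2 difference (points) and 95% interval (lines) of each gene (y axis) in red against control, tangerine against control and tangerine against red, from edgeR with 12 mice per diet. No point lies beyond 0.23 in either direction, and Ces1d has the widest intervals.

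Some of these genes differed between the library sets. With diet in the model, Ces3b was lower in set A by 0.261 on the log2 scale (edgeR adjusted p = 0.00364), with means of 574 CPM in set A and 672 in set B. Ces3a was lower by 0.165 (adjusted p = 0.0303, 2026 against 2241 CPM), and Ces1g was higher by 0.21 (edgeR adjusted p = 0.0435, 174 against 156 CPM). These 3 of 10 compare with 36.3% of all genes, so the share among the 10 is not above the background. Ces1d differed by 0.323 (edgeR adjusted p = 0.0597, 604 against 503 CPM). With set as a covariate no gene of the 10 passed in any diet contrast, and 4, 2, 4 and 2 had an unadjusted p under 0.05, beside 15.2%, 6.99%, 16.7% and 8.57% of all genes in the same fits.

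The other genes of the family were less abundant. Ces1a, Ces1h, Ces2f and Ces5a did not pass the low-count filter, with 34, 26, 32 and 1 counts over all 36 libraries. Of the 6 that passed, Ces2g was the highest, with 59.1 ± 4.34 CPM (SD, n = 12) in control, 55.2 ± 4.89 in red and 59.3 ± 8.77 in tangerine mice, and Ces2c stood at 10.7 ± 2.74, 12.7 ± 2.72 and 13.1 ± 4.11 CPM. The pseudogene Ces2d-ps was at 5.13 ± 1.58 CPM on control and Ces2h at 1.14 ± 0.186. Ces2b was at 0.515 ± 0.288 CPM. Ces4a went from a control mean of 1.79 CPM to 3.33 on red and 2.69 on tangerine. Its red difference was 0.89 on the log2 scale (0.29 to 1.48, edgeR unadjusted p = 0.00457, adjusted p = 0.163), and none of the 6 passed in any contrast with edgeR. limma-voom gave Ces4a 0.95 on red with an adjusted p of 0.0324, and the DESeq2 adjusted p was 0.0753. With library set as a covariate the edgeR difference was 0.65 (adjusted p = 0.299), and it was 0.20 within set A and 1.18 within set B.

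Some genes of a list of receptor and factor targets rose where the carboxylesterases did not pass. Of 11 listed targets of PXR, CAR, NRF2, PPARα and AHR, 1 passed in red against control, beside 0.149% of all genes. In tangerine against control 2 did, beside 0.0142%. The list medians were 0.52 and 0.54, beside -0.00 and -0.01 for all genes. Single values ran from -0.02 to 1.39 on red and from -0.03 to 1.55 on tangerine. The list was chosen with earlier results of these data known, so these shares and medians are a description and not a test. Cyp2c29, a CAR and PXR target, rose from a mean of 696 CPM on control to 1218 on red (log2 difference 0.81, edgeR adjusted p = 2.17e-06) and 1035 on tangerine (0.57, edgeR adjusted p = 0.00476). All 12 mice of each tomato diet were above its control median. Cyp1a2, the AHR target that metabolises caffeine, rose to 583 CPM on tangerine from 401 on control (0.54, edgeR adjusted p = 0.0115) and from 431 on red (0.44, edgeR adjusted p = 0.0155). In tangerine against red, Cyp2c55 was lower by 0.54 (edgeR adjusted p = 0.026) and Gclc, which starts glutathione synthesis, by 0.43 (adjusted p = 0.0359). From control, Cyp2c55 differed by 0.55 on red (edgeR adjusted p = 0.0591) and 0.01 on tangerine, at a control mean of 2.43 CPM. Gclc differed from control by 0.40 on red (edgeR adjusted p = 0.0978) and -0.03 on tangerine. Both calls in tangerine against red were lost without red 186 and tangerine 216 (edgeR adjusted p of 0.0814 and 0.0948) and with mouse number as a covariate (0.0559 and 0.0952). With mouse number as a covariate Cyp1a2 also lost its calls, at 0.48 against control (edgeR adjusted p = 0.0838) and 0.38 against red (adjusted p = 0.0539). Within the 20 libraries of set A no gene of the table passed in any pairwise contrast, Cyp2c29 included (0.74 on red, edgeR adjusted p = 0.118). The 95% intervals of all 10 carboxylesterases in red against control ended at 0.44 or lower, under the 0.62 at which that of Cyp2c29 began. Cyp2c29 had the smallest adjusted p of all genes tested there, so the comparison is with a picked gene.

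Among 12 receptors and factors known to act on carboxylesterase genes, 0 passed against control on either diet and 1 in tangerine against red. That gene was Cebpa, which encodes C/EBPα and stood at 363 CPM on tangerine against 292 on red (0.31, edgeR adjusted p = 0.0452). That call was lost with library set as a covariate (0.28, adjusted p = 0.084), with mouse number as a covariate (0.30, edgeR adjusted p = 0.108) and without red 186 and tangerine 216 (0.29, adjusted p = 0.126). Keap1, the inhibitor of NRF2, differed from control by 0.14 on tangerine (edgeR adjusted p = 0.625) and by 0.13 on red (adjusted p = 0.245). Of 18 tested ester and lipid hydrolases outside the family, 14 tested genes of lipid droplets and VLDL assembly and 4 of retention in the endoplasmic reticulum and its partners, none passed in any of the 4 contrasts with edgeR. Without adjustment 1 hydrolase, 3 droplet genes and 2 genes of the retention list (Kdelr1 and the partner Gusb) had p under 0.05 in red against control. That is 5.56%, 21.4% and 50% of each list beside 13.3% of all genes. In tangerine against control the counts were 0, 2 and 1, or 0%, 14.3% and 25% beside 5.47%. In tangerine against red they were 2, 5 and 1, or 11.1%, 35.7% and 25% beside 15.1%. The smallest p-values were those of Plin2, the droplet coat protein, with -0.43 in tangerine against red (edgeR adjusted p = 0.0576), and of Dgat2, which makes triglyceride, with 0.26 (adjusted p = 0.0722). From control, Plin2 differed by 0.37 on red (edgeR adjusted p = 0.163) and -0.07 on tangerine, and Dgat2 by -0.25 (adjusted p = 0.122) and 0.00. Pon1 and Lipa had 0.18 (edgeR adjusted p = 0.176) and -0.20 (adjusted p = 0.218) in tangerine against red, and Kdelr1, a retention receptor, 0.12 (adjusted p = 0.225).

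The clock genes, which include the D-box factor Dbp, differed between the tomato diets. In tangerine against red 6 of 10 tested clock genes passed, beside 1.71% of all genes. Dbp (1.84) and Nr1d2 (0.75) were higher and Npas2 (-2.51), Arntl (-1.46), Cry1 (-0.47) and Clock (-0.46) lower, with edgeR adjusted p of 0.0173 to 0.0497. Against control 0 passed on either diet. Without adjustment 9 of 10 had p under 0.05 on red (13.3% of all genes) and 0 on tangerine (5.47%). Dbp differed from control by -1.44 on red and 0.39 on tangerine, and Arntl by 1.13 and -0.33. The clock list was chosen with earlier results of these data known. The other D-box factors were looked at after the matches had been seen. In tangerine against red Tef differed by 1.08 (edgeR adjusted p = 0.0271), Hlf by 0.38 (adjusted p = 0.193) and Nfil3 by -0.66 (adjusted p = 0.122). From control they differed by -0.83, -0.43 and 0.51 on red and by 0.24, -0.05 and -0.15 on tangerine. The genes with a D-box word did not share a direction in tangerine against red, at 0.17 for Ces1b, 0.15 for Ces1c, -0.18 for Ces1e and -0.05 for Ces1g, and none passed. A clock score per library was taken as the first principal component of the 10 clock genes (68.7% of their variance) and averaged 0.663 ± 2.39 (SD, n = 12) in control mice, -2.24 ± 1.9 in red and 1.57 ± 1.98 in tangerine mice. With diet in the model, 0 of 10 carboxylesterases had a slope on that score that passed with edgeR, beside 6.34% of all genes. None had an unadjusted p under 0.05, beside 19.6%. The score is made of the clock genes, of which 6 of 10 passed in tangerine against red, and its mean differed between those diets. A fit with the score as a covariate therefore cannot tell clock and diet apart. In that fit no gene at all passed in tangerine against red. The difference of Cebpa was then 0.10 (edgeR adjusted p = 0.684), that of Gclc -0.12 (adjusted p = 0.712) and that of Cyp1a2 0.26 (adjusted p = 0.368). For Cyp2c55 it was -0.46 (edgeR adjusted p = 0.295).

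Mice of one diet varied together in several of these genes. For each of the 45 pairs, log2 CPM with the diet means removed was correlated over 36 mice, with a permutation test within diets (100000 permutations, so 1e-05 is the smallest p they can give) and adjustment over the 45 pairs. By Pearson's r 24 pairs passed, 22 of them positive. By Spearman's rho 20 did. The test is against no correlation, and the share of all gene pairs that would pass was not computed. A pass alone therefore does not set a pair apart from other genes. Ces1b with Ces1d passed at r = 0.39, yet 15.7% of the 7852 genes compared below had a higher r with Ces1b. At the other end, 0% had a higher r with Ces1f than Ces1d had. In all 42 settings, 36 of which left out 1 library each, 11 pairs passed, and these are the ones described first.

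The neighbouring genes Ces1d, Ces1e, Ces1f and Ces1g formed a group. All 6 pairs among them passed in every setting, with r of 0.58 to 0.84. Ces3a with Ces3b (0.73) and Ces1b with Ces1c (0.70) lie within that range. Ces1d with Ces1f had r = 0.84 (permutation p = 1e-05, adjusted p = 0.00015) and rho = 0.83 (permutation p = 1e-05, adjusted p = 0.000225), and r = 0.85 without the 2 livers farthest from the Ces1d median. Within diets it was 0.88 on control, 0.69 on red and 0.94 on tangerine, and within library sets 0.86 in A and 0.74 in B. Ces1e with Ces1f had r = 0.80 (permutation p = 1e-05, adjusted p = 0.00015), rho = 0.75 (adjusted p = 0.000225) and 0.74 without the 2 farthest livers. Ces1e with Ces1g had 0.71, Ces1d with Ces1g 0.67, Ces1f with Ces1g 0.65 and Ces1d with Ces1e 0.58, with adjusted permutation p of 0.000225, 0.00018, 0.000337 and 0.0009. Over the 6 pairs, r was 0.66 to 0.88 on control, 0.48 to 0.88 on red, 0.53 to 0.94 on tangerine, 0.55 to 0.86 in set A and 0.60 to 0.88 in set B. These genes share few 50-base words with any gene, as given above, and none of 100 bases.

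Against all 7852 other genes of at least 3 on the log2 CPM scale, the ranks of these partners ranged from 1 to 288. Ces1d was the gene most correlated with Ces1f, and Ces1f the one most correlated with Ces1e, with Ces1g second. Ces1g ranked 65 for Ces1f and 87 for Ces1d, and Ces1e ranked 288 for Ces1d, with 3.66% of genes above it. For comparison, the middle 90% of all genes had r of -0.50 to 0.54 with Ces1d and of -0.49 to 0.52 with Ces1f, so a moderate r is common in these libraries.

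The other pairs that passed in all settings linked Ces1c with Ces1d (r = 0.50, adjusted permutation p = 0.00691) and Ces1f (r = 0.56, adjusted p = 0.00256), Ces1b with Ces1c (r = 0.70, adjusted p = 0.00018) and Ces3a (r = 0.65, adjusted p = 0.000337), and Ces3a with Ces3b (r = 0.73, adjusted p = 0.00015). Their rho values were 0.50, 0.59, 0.64, 0.61 and 0.62, with adjusted permutation p of 0.0078, 0.00145, 0.000675, 0.00135 and 0.00072, and without the 2 livers farthest from the first gene's median r was 0.43, 0.53, 0.76, 0.49 and 0.59. None of the settings was a single diet or a single library set. Ces1c with Ces1d had r = 0.55 in set A and 0.16 in set B. Within diets it was 0.69 on control, 0.66 on red and 0.33 on tangerine. For Ces1d 6.89% of genes had a higher r than Ces1c, and for Ces1c 2.14% had a higher r than Ces1d. In sets A and B, Ces1c with Ces1f had 0.53 and 0.48, and Ces1b with Ces3a 0.41 and 0.86. The pair Ces1b and Ces1c had r = 0.92 in set A and 0.48 in set B, and Ces3a and Ces3b 0.68 and 0.61. Both pairs share sequence, and the part of reads assigned to the wrong copy in these values was not tested.

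The 8 pairs of Ces1d to Ces1g with Ces3a and Ces3b had r of -0.29 to 0.18 and none passed, while with library set removed 1 did (Ces1f with Ces3a, r = 0.38, adjusted permutation p = 0.0481). A p that misses the threshold does not show that they are unrelated. Ces2e had negative r with Ces1b (-0.45, adjusted permutation p = 0.0244) and Ces1c (-0.44, adjusted p = 0.0225), with rho of -0.41 (adjusted p = 0.0433) and -0.39 (adjusted p = 0.045) and, without the 2 farthest livers, r of -0.49 and -0.33. Neither passed once red mouse 186, control mouse 189 or tangerine mouse 225 was left out. Mouse 189 was the highest control mouse in Ces2e, at 229 CPM, and the lowest in Ces1b and Ces1c, and mouse 225 was the reverse on tangerine. Without red mouse 186, 12 of the 45 pairs passed, and without control mouse 189, 14 did.

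**Figure D4:**
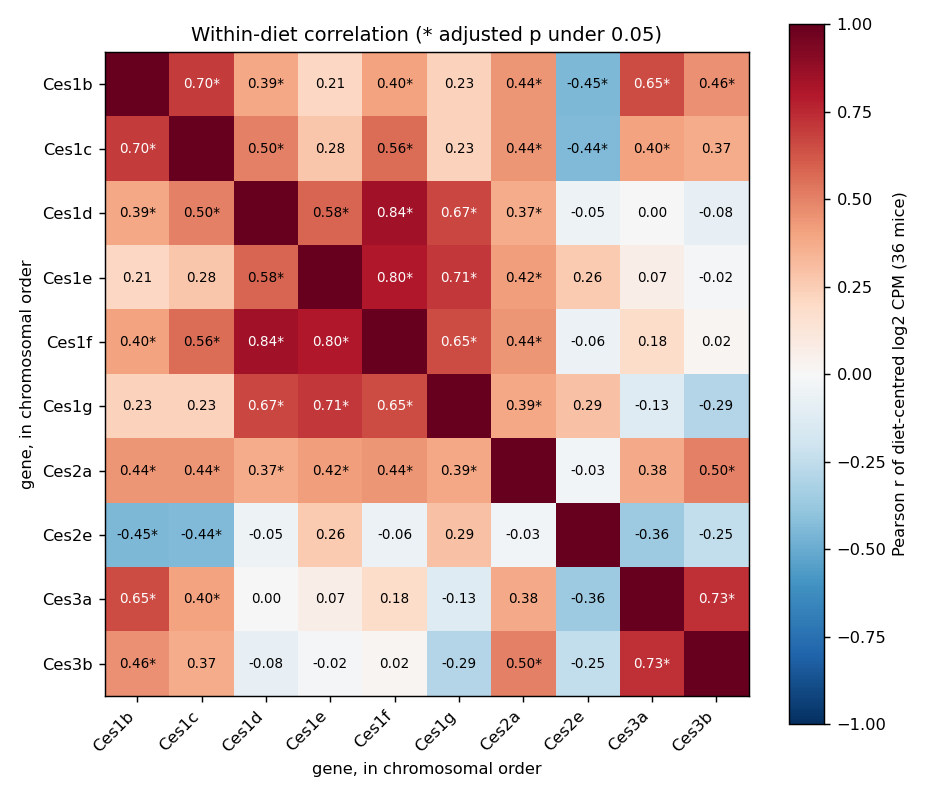
Pearson r of diet-centred log2 CPM over 36 mice for each pair of the 10 genes (both axes in chromosomal order, colour from -1 to 1, a star marks an adjusted permutation p under 0.05). Ces1d to Ces1g form a block at 0.58 to 0.84, and their cells with Ces3a and Ces3b lie between -0.29 and 0.18.

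**Figure D5:**
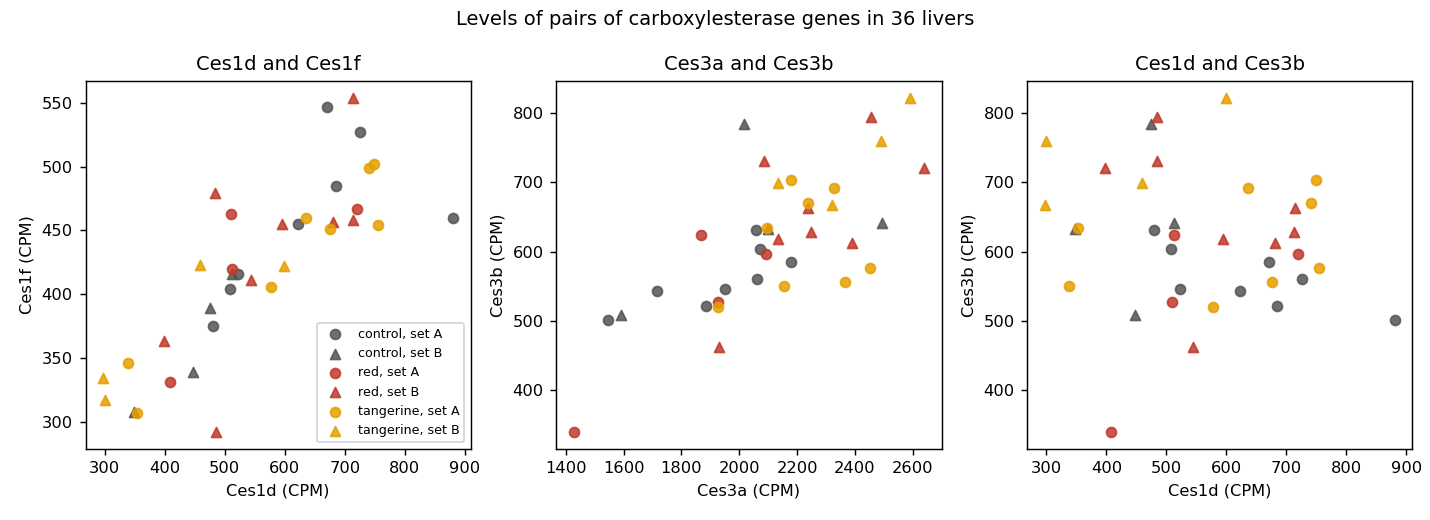
CPM of Ces1f against Ces1d, Ces3b against Ces3a and Ces3b against Ces1d, 1 point per liver, coloured by diet and shaped by library set. The first pair follows 1 line in all diets with the low tangerine livers at its lower end, and the mean of Ces3b is 672 CPM in set B livers (triangles) and 574 in set A (circles).

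Outside the family, each gene was matched to the gene with the highest r over the same 36 mice among 7841 genes, as a description without a test. The matches were Cyp3a13 for Ces1d (r = 0.86, rho = 0.84), Akr1c13, an aldo-keto reductase, for Ces1f (0.81, rho 0.79) and Ces1e (0.62, rho 0.60), and B630019A10Rik for Ces1g (0.78, rho 0.72). Ces1b was most like Azgp1 (0.81, rho 0.75), Ces1c like Nat8f1 (0.74, rho 0.66), Ces2a like Tstd1 (0.81, rho 0.83) and Ces2e like Aldh1a7, a cytosolic aldehyde dehydrogenase (0.69, rho 0.64). Ces3a followed Apoa1, the main protein of high-density lipoprotein (0.85, rho 0.79), and Ces3b followed Gstp1, a glutathione transferase (0.85, rho 0.81). Within set A and set B these r were 0.86 and 0.79 for Ces1d, 0.78 and 0.80 for Ces3a and 0.76 and 0.90 for Ces3b, while for Ces1g they were 0.59 and 0.83. The points share library depth and library set, and the time of day at which each mouse was killed is not in the labels.

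Spread within diets differed between the genes as well. After Ces1d, the SD on the log2 scale was 0.27 for Ces1e, 0.26 for Ces1g, 0.25 for Ces1f and Ces3b, 0.19 for Ces3a and Ces2e, 0.18 for Ces2a, 0.17 for Ces1b and 0.14 for Ces1c. Ces1c, the most abundant, was steadier than most genes of like abundance, with 17.6% of those 74 genes having a smaller SD. Ces1e and Ces1g were above 78% and 80.7% of theirs.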

How the data were processed

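The authors deposited 1 table of raw read counts per gene, without normalization, for 36 libraries. Per the submitters' processing notes, FastQC, Trimmomatic, edgeR and the build GRCm38.p6 were used, and per the labels' protocols libraries were made with a directional kit. The aligner, the counter, its strand setting and its treatment of shared reads are not given in the sources used here. Symbols came from GENCODE M21 for 53620 identifiers.

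Genes were filtered with filterByExpr (count 10, total 15), scaled by TMM and tested with edgeR 4.0.16 (quasi-likelihood, robust, R 4.3.3) over all 36 libraries and 14068 genes. CPM are TMM-scaled, log2 CPM used a prior count of 2, and the SE is the fold change over the root of F. limma 3.58.1 and DESeq2 1.42.0 were alternatives, and correlations used scipy 1.17.1. On simulated counts for red against control (14068 genes) the test recovered 22 of 100 genes changed 1.2-fold and 77 of 100 changed 1.5-fold, with 7 false calls.

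The members and gene lists were chosen with earlier results of these data known. Named from each list were genes past the threshold and the 2 with the smallest p, and for each member the 1 most correlated gene outside the family. Library sets were split at the largest gap of Ube2d3. Depth was 21290169 to 33810573 counts.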

Additional observations from a re-analysis of the deposited data

How the results depend on the processing

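The 10 genes stayed past no threshold in every setting and contrast except limma-voom in red against control, where 1 (Ces2a) passed. Over all alternatives, 415 log2 differences of the 10 genes kept their direction and side of the threshold, 24 reversed and 1 (Ces2a) passed newly. The 415 include the 10 values of both diets against control in the setting that fits only the groups compared. For that contrast this setting is the main fit again, so those values could not move. The number of all genes past the threshold moved more. In red against control it was 21, and 167 with DESeq2, 1504 with limma-voom, 4 with the clock score as covariate, 53 without red 186 and tangerine 216 and 0 in set A. In tangerine against control it was 2, and 7 with DESeq2, 1 with mouse number as covariate, 0 in set A and 5 in set B. In tangerine against red it was 241, and 136 without the low-count filter, 421 with DESeq2, 746 with limma-voom, 0 with the clock score, 32 with mouse number, 86 without red 186 and tangerine 216, 0 in set A and 35 in set B. In both diets against control it was 1, and 6 without the filter, 12 with DESeq2, 34 with limma-voom, 2 without that pair and 0 in set B. Set A and set B hold fewer mice; the cause of the other changes was not tested.

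These log2 values reversed, and none of them passed the threshold. Red against control: Ces1c 0.09 in set B; Ces1d 0.07 with the clock score, 0.01 without red 186 and tangerine 216, 0.11 with set as covariate and 0.37 in set B. There Ces1f had -0.03 with limma-voom and -0.12 in set A, Ces3a -0.07 in set A, and Ces3b -0.04 with set as covariate and -0.09 in set A. Tangerine against control: Ces1b -0.05 in set B, Ces1e -0.02 in set A, Ces1f 0.04 in set B, Ces2e 0.01 with mouse number and 0.00 in set B. Tangerine against red: Ces1d 0.16 and Ces1f 0.02 in set A, and Ces2a -0.05 with the clock score. Both diets: Ces1c -0.05 in set A, Ces1d 0.01 with set as covariate and 0.13 in set B, and Ces1f 0.00 with the clock score, 0.01 with set as covariate and 0.15 in set B.

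The number of correlated pairs was 24, and 14 with the clock score removed, 28 with library set removed, 11 without red 186 and tangerine 216, and 12 to 24 when 1 library was left out. The summed control level was 3166 RPKM, and 3897 by the longest transcript. No paired analysis was possible because no mouse number occurs in more than 1 diet. The library sets and the leave-one-out pairs were chosen after seeing the data.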
